A study of Mus musculus with 12 samples.

Results

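On a mouse CpG island array, 1261 probes met a rule for low values in the ES cell line CC9 mus. At these probes all 3 CC9 mus arrays had a lower ratio of methylated to input DNA than each of the 9 arrays of 3 lines with divergent mtDNA. The 1261 probes were 1.48% of the 84939 probes on chromosomes 1 to 19 with a value on all 12 arrays, out of 88737 probes on the array. Before the conditions on size and level given below, CC9 mus was below the 9 others at 2820 probes (3.32%). The value of a probe was log2(IP/input), the log2 of the processed signal of the immunoprecipitated DNA over that of the input DNA, centred on the median of its array, so that 0 is the middle of the array and not an absence of methylation. A probe was chosen if the highest CC9 mus value was below the lowest of the 9 others, if the CC9 mus mean minus the mean of the 9 others (called the difference here) was −1 or less, and if the CC9 mus mean was below 2. The members were therefore selected on the values of CC9 mus against the other lines, and these values are given as a description, with no test. The files do not pair the probes with genes, so the probes are named by their position on mouse genome build mm9.

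CpG islands are short stretches rich in CpG dinucleotides that overlap many promoters. Most of them are unmethylated, and those of silenced and imprinted genes can carry dense methylation. DNA methyltransferases place 5mC and maintain it through cell division, and TET enzymes oxidise it on the way to demethylation. In MeDIP an antibody to 5mC collects methylated fragments, so a CpG island without methylation gives little IP signal relative to its input.

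The experiment compared 4 ES cell lines with 3 biological replicates of each, according to the design text. All were derived from CC9.3.1 ES cells of a 129SvEv-Gpi1c(129S6) embryo, so their chromosomes are of *M. musculus* origin, and they were made by fusing enucleated cytoplasts to CC9.3.1 cells depleted of mtDNA. CC9 mus carries *M. musculus* mtDNA of the parental genotype and controls for the making of the lines, CC9 spretus carries the mtDNA of *M. spretus*, CC9 dunni that of *M. terricolor* and CC9 pahari that of *M. pahari*. The cells were untreated, had been grown on feeder cells and were kept without them for 48 h. On each array Cy5 marked the IP DNA and Cy3 the input DNA, with no dye swap, so a difference between the dyes cannot be told apart from the enrichment.

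CC9 mus replicate 1 stood apart from the other arrays. The SD of its log2 ratios over all probes was 0.52, while the other CC9 mus arrays had 1.84 and 2.01 and those of the divergent lines 1.07 to 1.37. It was the highest of the 3 CC9 mus arrays at 948 members (75.2%). With this array left out, 11596 probes in 5916 loci met the rule, and with replicate 3 left out 2094 did. The 3 CC9 mus arrays shared a scan day with none of the other lines, and that day fell in the later of 2 scan periods. Replicates 1 and 2 of each divergent line were scanned in the earlier period and replicate 3 in the later period. CC9 mus and its scan day therefore cannot be told apart. Replicates 1 and 2 shared a slide in CC9 mus, in CC9 dunni and in CC9 pahari. Replicate 3 of CC9 spretus shared a slide with replicate 3 of CC9 dunni. The main limma fits given further on treat arrays of a shared slide as independent, and the slide was entered only as an alternative. On the arrays of the later period alone, 3 of CC9 mus and 3 of the other lines, 3001 probes met the rule.

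Over the members, the median log2 ratio was −0.52, −1.18 and −1.21 on the 3 CC9 mus arrays. The arrays of CC9 pahari had 0.42, 0.44 and 0.10, those of CC9 dunni 0.42, 0.47 and 0.27, and those of CC9 spretus 0.29, 0.31 and −0.01. The 3 medians of CC9 mus lay below the 9 others, as the choice of the members requires, and the later array of each divergent line lay nearest to CC9 mus. The median of the line means was −0.98 in CC9 mus, and the divergent lines had 0.37 (CC9 dunni), 0.33 (CC9 pahari) and 0.20 (CC9 spretus). The difference had a median of −1.27 and ran from −3.24 to −1.0004 over the members, while over all 84939 probes its median was −0.06. Against the 3 later arrays of the divergent lines alone, the median over the same members was −1.13, and against their 6 earlier arrays −1.36. Differences between −1 and −1.5 made up 938 members, and 61 members in 53 loci had a difference of −2 or less. The separation was narrow at most members. The gap between the highest CC9 mus value and the lowest of the 9 others had a median of 0.21 and a lower quartile of 0.10.

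Ranks within each array restate the values that chose the members. With the probes of an array ranked from 0 to 100, the median member stood at percentile 11.1, 28.4 and 23.5 in CC9 mus and between 50.0 and 68.5 on the 9 others. At 1063 members (84.3%) the 3 CC9 mus percentiles were all below the 9 others, and at the other 198 they overlapped.

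The working name of these probes, methylation lost in CC9 mus, went against the data for most of them, since most had no high ratio in the divergent lines, as was the case for most probes of the array. The mean over the 9 arrays was 2 or more at 56 members (4.44%, against 4.71% of all probes) and between 1 and 2 at 94 (7.45%, against 9.50%). It was between 0 and 1 at 825 members (65.4%, against 34.2%) and below 0 at 286 (22.7%, against 51.6%). They are therefore called CC9 mus-low probes here. In CC9 mus the mean was below 0 at 1179 members and below −2 at 39. A further 42 probes met the first 2 conditions but had a CC9 mus mean of 2 or more, and by the rule itself these were all high in the divergent lines.

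The 56 members that were high in the divergent lines lay in 46 loci and showed the strongest differences, with a median of −1.97. The rule in part sets this, since with a CC9 mus mean below 2 a high level elsewhere requires a large difference. Their median log2 ratio was 0.21, 1.87 and 2.29 in CC9 mus and ran from 2.92 to 4.26 on the 9 other arrays. Replicates 2 and 3 of CC9 mus thus still held these probes above the array median, and only replicate 1 placed them close to it. The 94 members between 1 and 2 had medians of −0.16, 0.05 and −0.27 in CC9 mus and 0.95 to 1.47 on the other arrays. In the largest class, between 0 and 1, the medians were −0.47, −1.04 and −1.17 in CC9 mus and 0.06 to 0.53 elsewhere. The 286 members below 0 had medians of −0.79, −2.02 and −1.70 in CC9 mus and −0.50 to −0.01 on the other arrays. On the 9 arrays of the divergent lines their median IP signal was 0.64 to 1.02 above the array median and their median input signal 0.84 to 1.54 above it, so the IP signal itself was not low.

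The ratio has 2 parts, and both the IP and the input signal took part in the difference. With each channel centred on its array median, the members' IP signal differed by −0.53 (median, CC9 mus minus the 9 others) and their input signal by 0.73. Over all probes these medians were −0.06 and 0.05. The IP signal was lower and the input signal higher in CC9 mus at 1055 members (83.7%), against 20.7% of all probes. Both signals were lower at 92 members (7.3%, against 32.5% of all probes) and both were higher at 114 (9.04%, against 32.3%). The input difference was the larger one at 746 members (59.2%) and at 46.3% of all probes. The input signal of all 3 CC9 mus arrays was above the 9 others at 717 members (56.9%) and at 17.1% of all probes. The IP signal of all 3 was below them at 209 members (16.6%) and at 1.98% of all probes. The members' shares come from the contrast that chose the members.

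The balance of the channels changed with the level in the divergent lines. At the 56 members with a mean of 2 or more, the median IP difference was −1.55 and the median input difference 0.64, and the input difference was the larger at 15 of them. Between 1 and 2 the medians were −0.98 and 0.49. Between 0 and 1 they were −0.55 and 0.69, and below 0 they were −0.34 and 0.95, with the input difference the larger at 225 of 286 members. The members' median input signal was 1.34, 1.38 and 1.64 on the CC9 mus arrays, 0.57 to 0.72 on the 6 earlier arrays of the divergent lines, and 1.09, 0.83 and 0.89 on the later arrays of CC9 spretus, CC9 dunni and CC9 pahari. The input signal thus followed the order of CC9 mus, later arrays and earlier arrays with no overlap between the 3 sets. The members' median IP signal was 0.77, 0.27 and 0.27 in CC9 mus and 0.98 to 1.09 in the divergent lines, so that of CC9 mus replicate 1 was nearer to the divergent lines than that of replicates 2 and 3. Which channel held the larger part therefore depended on the CC9 mus array and on the arrays it was set against. The cause of the higher input signal was not tested.

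Members were more frequent among probes with a bright input. Of the tenth of probes with the highest input signal in the divergent lines, 289 were members (3.40%), and of the tenth with the lowest, 51 (0.60%). The median difference over all probes of these groups was −0.29 and 0.24. Short probes were frequent too. The shortest probes of the array, 45 bp, made up 87.9% of the members and 74.1% of all probes with 12 values, and 62.5% of the 56 members that were high in the divergent lines.

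Most members had signal above background, yet their number depended on how the signals were processed. With normexp correction 112 probes met the rule in place of 1261. That setting started from the median spot signals, not the processed signals, and added an offset of 50. The drop is thus not that of the background correction alone. Over the same members the median difference was −0.95 there, against −1.27. In CC9 mus the IP signal was well above background at 99.9%, 88.8% and 95.1% of members, on each array of the other lines at 97.7% or more, and the input signal at 97.4% or more on each array. No member was saturated. The IP signal was well above background on all 12 arrays at 1098 members and on all 3 CC9 mus arrays at 1101. At a single member, chr4:55527839-55527883, named after its values were seen, it was not well above background on any CC9 mus array. The log2 ratio there was −0.97, −0.04 and 0.04 in CC9 mus and 0.34 to 2.05 on the 9 others, with a median of 1.33. The CC9 mus values rest on a dim IP signal and may be bounds. With 3 arrays per line, the spread between arrays sets how precise each value is.

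Of the 10 members with the most negative difference, 1 per locus, 8 had a mean above 2 in the divergent lines. At chr8:11561742-11561794 (A_68_P25656261) the log2 ratio was 0.14, 1.48 and 2.54 in CC9 mus and ran from 4.14 to 5.56 on the 9 others with a median of 4.27. The difference was −3.24, the most negative of the set, with an IP difference of −2.39 and an input difference of 0.82. The lines were separated by 1.60, the widest gap of any member. At chr1:74829526-74829570 the CC9 mus values were 0.13, 1.04 and 3.37 and the others 3.59 to 6.005, with a median of 4.57 and a difference of −3.14. CC9 mus replicate 3 came close to the lowest array of CC9 spretus here. At chr10:127030734-127030787 (A_68_P27536901) CC9 mus had 0.58, 2.64 and 2.41, and the others 3.33 to 5.88 with a median of 5.09 and a difference of −3.09. Its mean over the 9 others, 4.97 ± 0.75 (SD, n = 9), was the highest among the members, followed by those of the chr1 and chr8 probes at 4.66 ± 0.81 and 4.62 ± 0.54. These 3 probes thus led both by their level in the divergent lines and by their difference. The rule in part sets this, since with a CC9 mus mean below 2 a high level elsewhere requires a large difference. With normexp correction the difference of the chr10 probe was −1.98, and with equal spread that of the chr1 probe was −4.72.

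A second group of the 10 came down to the array median or below it in CC9 mus. At chr5:143194708-143194755 the CC9 mus values of −0.50, 0.42 and 0.39 lay around the array median, and the others ran from 1.45 to 4.26 with a median of 2.81, a difference of −2.87. At chr7:106497298-106497342 they were −0.19, 0.75 and 0.20 against 2.31 to 3.59, with a median of 2.84 and a difference of −2.76. Both probes were enriched in IP DNA on each of the 9 arrays of the divergent lines, and with normexp correction the difference of the chr7 probe was −1.25. At chr12:25365989-25366033 CC9 mus had −1.60, −2.83 and −2.09, and the others −0.84 to 1.83 with a median of 0.52 and a difference of −2.69. That difference lay almost entirely in the input signal, which was higher in CC9 mus by 2.31 while the IP signal differed by −0.35. At chr14:67486601-67486645 the values were −1.32, −3.16 and −0.55 in CC9 mus and −0.24 to 2.94 elsewhere, with a median of 1.00 and a difference of −2.87. Here the arrays of CC9 dunni lay above those of CC9 spretus and CC9 pahari, as described with the line test.

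The remaining 3 of the 10 kept a positive ratio on each CC9 mus array. At chr15:75543756-75543800 the CC9 mus values were 0.64, 2.27 and 2.15 and the others 2.77 to 5.76, with a median of 4.48 and a difference of −2.71. At chr4:135472765-135472809 they were 0.57, 1.73 and 2.48 against 3.23 to 5.50, with a median of 4.01 and a difference of −2.52. The IP signal carried all of it, at −2.59 against an input difference of −0.09. At chr4:133628753-133628797 CC9 mus had 0.63, 2.70 and 2.62, and the others 3.65 to 5.04 with a median of 4.48 and a difference of −2.52. With normexp correction the difference of that last probe was −1.23 and with equal spread −3.93, and that of chr4:135472765-135472809 was −3.78 with equal spread. At each of these 3 probes CC9 mus replicate 1 was the lowest array, in contrast to its place over the members as a whole.

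At the 3 members with the lowest CC9 mus mean, the median of the 9 other arrays was below 0 as well. At chr15:96472950-96472994 the CC9 mus mean was −2.58 ± 1.33 (SD, n = 3), from −1.55, −4.08 and −2.10, and the 9 other arrays ran from −1.40 to −0.33 with a median of −0.84. At chr17:57129711-57129755 the mean was −2.56 ± 1.14, from −1.32, −3.56 and −2.80, against −1.31 to 0.27 and a median of −0.86. At chr19:44825072-44825116 it was −2.51 ± 1.73, from −1.46, −4.50 and −1.57, against −0.96 to 0.51 and a median of −0.41. CC9 mus replicate 2 gave the lowest value at all 3. Single arrays of the divergent lines were above 0 at the chr17 and chr19 probes. At the chr15 and chr19 probes only 2 of the 3 CC9 mus arrays had an IP signal well above background, and at chr19 only 7 of the 9 others. These means and SDs thus rest in part on values with a dim IP signal, which may be bounds. The input signal of the chr19 probe was higher in CC9 mus by 2.53.

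Probes on both sides of each threshold had like values. The 3 members nearest to a difference of −1 had −1.0004 at chr19:32463753-32463797, −1.0013 at chr4:150503163-150503207 and −1.0014 at chr7:25862024-25862068. Their CC9 mus values were −0.32, −0.40 and −1.10 at the first, −0.42, −0.67 and −0.42 at the second, and −0.57, −1.41 and −0.33 at the third. The 3 nearest probes left out had −0.9996 at chr7:26004436-26004480, −0.9992 at chr18:20904874-20904918 and −0.9991 at chr16:20693547-20693591. They met the other conditions, and a change of less than 0.01 would have added them. For the CC9 mus mean below 2, the nearest members had 1.98 at chr4:133628753-133628797, 1.96 at chr9:108008754-108008798 and 1.91 at chr2:167923967-167924011. The nearest probes left out had 2.04 at chr7:87226574-87226619, 2.04 at chr8:124308748-124308792 and 2.09 at chr15:75543650-75543694. The last of these lies next to a member named above for its strong difference, at chr15:75543756-75543800, and itself had a difference of −2.35.

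The members were scattered over the CpG islands of the array and seldom stood together. Neighbouring probes were joined into a locus where the gap between them was at most 1000 bp, which gave 14168 loci with a usable probe. Members lay in 1090 of them (7.69%), and 954 of these held a single member. The loci of members held a median of 6 usable probes, against 5 over all loci. A run was taken as members that follow each other within a locus with no other usable probe between them. There were 1072 members that stood alone (85.0%) and 85 runs of 2 or more with 189 members, of which 73 were pairs, 6 had 3 members, 5 had 4 and 1 had 5. The runs of 2 or more spanned 113 to 485 bp with a median of 164 bp, and their mean difference ran from −2.95 to −1.04. Without CC9 mus replicate 1 there were 2285 such runs, and without replicate 3 there were 320. Among the 56 members high in the divergent lines, 15 (26.8%) were in runs of 2 or more. In loci of 3 or more usable probes, 29.9% of members and 31.4% of all probes were the first or the last.

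The longest run held 5 members at chr17:26204538-26204988, over 451 bp at the start of a locus of 18 probes. Its mean log2 ratio was −0.38, −1.53 and −0.998 in CC9 mus and ran from 0.31 to 1.74 on the 9 others with a median of 1.11. The 5 differences lay between −2.32 and −1.52, and the IP signal differed by −1.84 and the input signal by 0.19. Among the divergent lines, CC9 pahari was lowest in this run with 0.33, 0.31 and 0.60, while CC9 spretus had 1.54, 1.11 and 1.44 and CC9 dunni 1.74, 1.73 and 0.98. Further along, the locus held a 6th member at chr17:26205185-26205229. Of its 12 other probes, 11 had a negative difference, the most negative being −1.92. Those differences lay mainly in CC9 mus replicates 2 and 3, while replicate 1 was within or above the range of the 9 others at most of these probes. At the last probe of the run a single CC9 mus array had an IP signal well above background, so its values rest in part on a dim signal and may be bounds.

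The next run, at chr7:106497298-106497710, held 4 members that were all well above the array median in the divergent lines. Its mean was −0.03, 0.65 and 1.03 in CC9 mus and 2.00 to 3.04 on the others, with a median of 2.37. The difference lessened along the run from −2.76 at the first probe to −1.15 at the last. The only other usable probe of the locus had a difference of −1.18 but overlapped between the groups. Averaged over the run, the difference lay in the IP signal, at −1.94, and the input difference was −0.02. That mean covers both signs, since the input difference went from 0.52 at the first probe to −0.49 at the last.

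At chr12:112509157-112509641 4 members had a mean of −0.40, −1.42 and 0.18 in CC9 mus and 0.52 to 1.72 on the others, with a median of 1.09. The locus held 9 probes, 5 of them members, and the 4 that were not had negative differences too, from −1.24 to −0.22. At chr15:100299584-100299907 the mean of 4 members was −0.53, −1.43 and −1.02 in CC9 mus and 0.27 to 1.15 elsewhere, with a median of 0.63. The other 5 probes of that locus lay on one side of the run. Of these, 4 had a negative difference, the most negative being −0.91. Only the probe farthest from the run was positive, at 1.05, so the change in sign within this locus rests on that probe. At chr16:90934441-90934866 4 members had a mean of −0.92, −2.36 and −1.74 in CC9 mus and −0.62 to 0.03 on the others, with a median of −0.33. The ratios of the divergent lines were close to the array median in this run, and the input signal of CC9 mus was higher by 1.00. The last run of 4 members, at chr5:90794262-90794599 and named after its values were seen, had a mean of −0.62, −2.01 and −0.87 in CC9 mus and −0.20 to 0.25 elsewhere. It resembled the chr16 run, with an input difference of 0.94 and an IP difference of −0.28.

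At 9 loci each usable probe was a member, and 6 of these had a single probe. The 3 others, named after their values were seen, had 2 probes each. At chr8:108228360-108228542 the mean was 0.27, 1.58 and 2.04 in CC9 mus and 2.56 to 4.63 on the 9 others, with a median of 3.31. At chr14:64112380-64112562 it was 0.71, 2.46 and 2.18 against 2.85 to 4.83 and a median of 3.32. At chr9:18277941-18278122 it was −1.20, −2.65 and −1.80 against −0.82 to 0.04 and a median of −0.41. The chr8 and chr14 loci were thus enriched in IP DNA in the divergent lines, and at the chr9 locus the ratios of all lines were below the array median or close to it.

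Probes that shared a locus with a member without being members leaned the same way. Over the 6987 such probes the median difference was −0.39, and it was negative at 5046 (72.2%). Over the 76691 probes of loci without a member the median was −0.01, with 50.5% negative. All 3 CC9 mus arrays were below the 9 others at 4.01% of the probes beside members and 1.67% of the probes elsewhere. The median input difference was 0.21 beside members and 0.03 elsewhere, and the median IP difference −0.19 and −0.03. Neighbouring probes can bind the same DNA fragments and are not independent of the members.

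The share of members differed from chromosome to chromosome. It was highest on chromosome 6, with 93 of 3999 probes (2.33%), followed by chromosome 16 with 54 of 2540 (2.13%), and lowest on chromosome 8, with 42 of 4930 (0.852%), and chromosome 1, with 47 of 4714 (0.997%). The input signal of whole chromosomes moved with the first and the third of these. Over all probes of chromosome 6 the median input difference was 0.39, with shifts from the probe means of 0.28, 0.29 and 0.32 in CC9 mus and −0.14 to −0.07 elsewhere. Over all probes of chromosome 8 it was −0.24, with shifts of −0.20, −0.19 and −0.15 in CC9 mus. CC9 dunni was low there too, with −0.10, −0.10 and −0.16, and overlapped with CC9 mus, while CC9 spretus had 0.06, 0.13 and 0.11 and CC9 pahari 0.21, 0.21 and 0.30. The IP signal moved the same way, with a median difference of 0.23 on chromosome 6 and −0.26 on chromosome 8, so the log2 ratio over all probes differed by −0.12 and 0.06 there. On chromosome 15, with a share of 1.78%, it also differed by −0.12. The median input difference was 0.03 on chromosome 16 and −0.04 on chromosome 1. On chromosome 1 a single array stood apart, CC9 spretus replicate 2 with an input shift of 0.28, while the others lay between −0.07 and 0.05. The part of the input signal in the share of members was not tested. Of the members high in the divergent lines, 8 were on chromosome 8, 7 on chromosome 7 and 3 on chromosome 6, so the chromosome with the lowest share held the most of this class. In windows of 10 Mb, 226 of 258 held a member. The most, 24 members in 19 loci, lay between 20 and 30 Mb of chromosome 17, a window of 1150 probes (2.09%), and 23 in 16 loci lay between 20 and 30 Mb of chromosome 7 (2.94%). Among the 10 windows with the most members, the share was highest between 120 and 130 Mb of chromosome 6 (3.77%) and between 10 and 20 Mb of chromosome 7 (3.54%).

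Differences among the divergent lines were fitted in limma on their 9 arrays, over all 84939 probes. The rule had used the lowest and the mean of the same 9 values, and the median SD of the 9 was 0.31 over the members and 0.38 over all probes. The counts of members from this fit and from that of the scan period are therefore a description, and nothing about the members is read from them. An F test of any difference among CC9 spretus, CC9 dunni and CC9 pahari called 19 probes at an adjusted p under 0.05 (0.0224%), and 0 of the 1261 members. At an unadjusted p under 0.05 there were 111 members (8.80%) and 5642 of all probes (6.64%). With each array left out in turn, the count over all probes was 0 without CC9 pahari replicate 1 or CC9 dunni replicate 2, 3 without CC9 dunni replicate 1, and 9, 10 and 11 without CC9 pahari replicate 2, CC9 pahari replicate 3 and CC9 spretus replicate 1. Within the earlier scan period alone it was 0, with 263 members and 14989 probes at an unadjusted p under 0.05. With the scan period as a block it was 197, with 2 members. With the slide as a random block it was 95, with 1 member. The *p*-values set the differences among the lines against the spread of the arrays within a line. In CC9 dunni and CC9 pahari that spread takes in arrays of a shared slide and an array of the later period. Lines whose ratios missed the threshold are not shown to be alike.

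The member nearest to the threshold was chr14:67486601-67486645, with an adjusted p of 0.0608 in limma. Its log2 ratio was 2.84, 2.94 and 2.60 in CC9 dunni, 1.08, −0.03 and 1.00 in CC9 spretus and 0.24, 0.28 and −0.24 in CC9 pahari. The 3 arrays of CC9 dunni lay above the other 6, and CC9 spretus and CC9 pahari overlapped. It was called with the scan period as a block, with the slide as a random block, with ratios not centred, with dim input left out and without CC9 spretus replicate 2. The other member called with the scan period as a block was chr11:116094047-116094091, named after its values were seen. It had 4.51, 4.36 and 3.34 in CC9 dunni, 2.94, 2.98 and 2.71 in CC9 spretus and 2.25, 2.33 and 2.08 in CC9 pahari, an order with no overlap between the 3 lines. Across the members as a description, CC9 spretus had the lowest mean of the 3 divergent lines at 726 members (57.6%), CC9 pahari at 298 and CC9 dunni at 237. Over all probes the shares were 34.5%, 25.4% and 40.1%.

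The scan period was fitted within the divergent lines too, where each line had 2 earlier arrays and 1 later array. The later array was replicate 3 in each line, so the period cannot be told apart from that set of replicates. In limma with line and period as terms, 262 members (20.8%) differed between the periods at an adjusted p under 0.05, near the 22.5% of all probes (19093). The later arrays were lower at 226 members (17.9%) and at 5295 of all probes (6.23%). They were higher at 36 members and 13798 probes. At a member the rule puts each CC9 mus value below all the others. A lower array there is thus nearer to CC9 mus by construction, and nothing is read from that. Over all members, later minus earlier had a median of −0.22, and over all probes 0.17. With ratios not centred, 311 of 337 members and 7666 of 17224 probes called were lower in the later period, and with normexp background correction 277 of 286 members and 3298 of 5493 probes. With the slide as a random block, which takes the shared slides into account, 31 members and 3650 probes were called. Without CC9 spretus replicate 3 the counts were 87 members and 6214 probes, and without replicate 2 of CC9 pahari or of CC9 dunni they were 143 members each, with 12229 and 12493 probes. They were 167 members and 13498 probes without CC9 pahari replicate 1, 170 and 13669 without CC9 dunni replicate 1, and 163 and 12805 without CC9 dunni replicate 3.

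The 5 members with the smallest adjusted p for the scan period show both directions. At chr9:8042543-8042587 the earlier arrays had 1.19 to 1.78, and the later arrays −0.48, 0.32 and 0.00 in CC9 spretus, CC9 dunni and CC9 pahari (limma, adjusted p = 0.00148). CC9 mus had −0.59, −0.88 and −1.74, and only the highest of these was close to the lowest later array. At chr18:83080744-83080788 the earlier arrays had 1.28 to 1.68 and the later 0.31, 0.05 and 0.35 (adjusted p = 0.00202 in limma), and CC9 mus −0.54, −1.25 and −0.50. At chr5:66155895-66155942 the earlier arrays had 0.76 to 1.77 and the later −0.23, 0.22 and −0.19 (adjusted p = 0.00204 in limma), and CC9 mus −0.23, −0.73 and −0.35. The highest CC9 mus array and the later CC9 spretus array were nearly equal there. At chr19:53384971-53385016 the earlier arrays had 1.40 to 2.17 and the later 0.50, 0.85 and 0.73 (adjusted p = 0.00240 in limma), and CC9 mus −0.67, 0.44 and 0.30. A further member was tied with this one in adjusted p and came after it by unadjusted p, chr15:100299863-100299907 in a run given above. Its earlier arrays had 0.29 to 0.98 and its later arrays 1.95, 2.33 and 2.39, so there the later arrays were higher. At chr15:100870801-100870846 the order was likewise the opposite, with 2.61 to 3.39 on the earlier arrays and 4.74, 5.13 and 3.78 on the later ones (adjusted p = 0.00221 in limma). CC9 mus had 0.36, 2.03 and 2.20 at this last probe, below both periods, and so farther from the arrays of its own period than from the earlier ones.

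The same rule applied to each other line against the 9 remaining arrays gave 362 probes for CC9 pahari (0.426%), 115 for CC9 dunni (0.135%) and 71 for CC9 spretus (0.0836%). Each of these lines was scanned in both periods, which was not the case for CC9 mus. For these lines the 9 remaining arrays also include the 3 of CC9 mus, with ratio SDs of 0.52, 1.84 and 2.01. For CC9 mus the 9 had SDs of 1.07 to 1.37. The counts of the lines are therefore not comparable like for like. In the other direction, all 3 CC9 mus arrays were above the 9 others with a difference of 1 or more at 2712 probes. Without the condition on the CC9 mus mean, the count for lower values was 1303. The count with that condition changes with the arrays used, as given above. Neither the count of 1303 nor the count for higher values was examined with arrays left out.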

How the data were processed

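The 12 arrays were scanned and extracted by the authors with Agilent Feature Extraction 11.0.1.0 per the labels (the file headers give a later version), and the deposited array files give background-subtracted, dye-normalised signals as intensity. The log ratio deposited by the authors is a log10 ratio of IP over input, and log2 ratios were computed here from the deposited processed signals. Ratios were centred on the median of each array, spots called outliers in the files were treated as missing, and 326 probes had no position. Signal above background took the place of depth. The members and lists were chosen with earlier results of these data known.

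Lines and scan periods were tested in limma 3.58.1 (lmFit, eBayes, Benjamini-Hochberg over all 84939 probes, adjusted p under 0.05) in R 4.3.3, with tables made in Python 3.11.15, numpy 2.4.6 and pandas 2.3.3. The counting code was tested on simulated data. Replicates of the same number correlated across the divergent lines by 0.12 to 0.54 after line means were removed, all above 0.1, and CC9 mus with them by −0.38 to 0.19. Number 3 coincides with the later scan period in each divergent line, and correlations between different numbers are not given here. These values therefore do not show that the numbers pair the samples. Replicate was tried as a block in the fit of the lines, which called 28 probes and 0 members in limma (182 members and 11247 probes at an unadjusted p under 0.05).

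The members named were the 10 with the most negative difference, 1 per locus; the 5 runs with the most members; the 3 on each side of both thresholds; the 3 with the lowest CC9 mus mean and the 3 with the highest mean elsewhere; up to 5 with the smallest adjusted p in each fit, ties by unadjusted p; and the chromosomes with the highest and lowest share. Alternatives were normexp correction of the median spot signals with an offset of 50, no centring, equal spread, the deposited ratio, outlier spots kept, dim input left out, ranks, blocks and each array left out. The channels taken alone and the members with a mean of 2 or more were added after seeing the data. Gene lists were not analysed here.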

Additional observations from a re-analysis of the deposited data

How the results depend on the processing

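The count of 1261 probes became 112 with normexp background correction, 2414 with equal spread, 3001 in the later scan period only and 61 at a difference of −2 or less. It ran from 1240 to 11596 with single arrays left out, and stayed within 1.5 times under the other settings run. The median difference of −1.27 was −0.53 in the IP channel alone and reversed to 0.73 in the input channel alone, both chosen after seeing the data, and ran from −1.48 to −1.17 with single arrays left out. The 1090 loci became 46 for members with a mean of 2 or more, also chosen after seeing the data, and ran from 1069 to 5916 with single arrays left out, while the 85 runs ran from 82 to 2285. The 19 probes called among the divergent lines became 33 not centred, 0 with equal spread, 45 with dim input left out, 197 with the scan period as a block, 0 in the earlier scan period only, 95 with slide as a random block and 0 on all 12 arrays (limma), and 0 to 20 with single arrays left out. Members called went from 0 to 1 not centred, 1 with dim input left out, 2 with the period block and 1 with the slide block, and 0 to 1 with single arrays left out. The replicate block, run for the lines only, gave 28 probes and 0 members, both within 1.5 times. For the scan period, 19093 probes became 5493 with normexp and 3650 with the slide block, and ran from 6214 to 21081 with single arrays left out. The 262 members became 31 with the slide block and ran from 87 to 254. The cause of these changes was not tested. Where the IP signal was not well above background, at 160 members on at least 1 CC9 mus array, the ratio is limited by the dim signal.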
